A study of Saccharomyces cerevisiae with 55 samples.

Results

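The 10 genes described here encode phosphatases, a regulator and polyphosphate synthesis proteins of the yeast phosphate pathway: PHO5, PHO11, PHO12, PHO8, PHO81, PHM6, PHM8, VTC1, VTC3 and VTC4. They were chosen by symbol or synonym among 6249 genes or probes on 55 two-colour arrays of Saccharomyces cerevisiae, all strains being of the W303 background. Each array set one RNA against another and the deposited value is a log2 ratio, so a value of 1 is a 2-fold difference. All 10 genes had a value on each of the 54 arrays that the labels place in a group. A ratio gives no level, and the level of one gene was not set against that of another.

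The strains were single mutants kcs1, vip1, arg82, ipk1, snt1 and rpd3, the double mutant kcs1vip1, and strains labelled Vip1D487A and Rpd3ibs, the second of which the labels do not spell out. Each mutant was compared with wild type under the same condition, in mid-log growth in YEPD medium or after 20 min in 0.375 M KCl. The kcs1vip1 mutant was also compared with wild type in 0.4 mM H2O2 and at 42 °C, and with itself before and after KCl or H2O2 and with 200 nM rapamycin added to KCl. Wild type under KCl, H2O2, heat or rapamycin was compared with wild type in mid-log growth. This made 27 groups: 7 of 3 arrays, 13 of 2 and 7 of a single array, so few arrays stand behind each value. Each genotype is 1 strain, and the labels do not say that arrays of a group came from separate cultures, so p-values measure only the spread between arrays.

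In yeast the cyclin-dependent kinase complex Pho80-Pho85 keeps the transcription factor Pho4 inactive when phosphate is plentiful. On phosphate starvation the inhibitor Pho81 blocks the kinase, and Pho4 with Pho2 turns on genes for phosphate release, uptake and storage. PHO5, PHO11 and PHO12 encode secreted acid phosphatases, PHO8 the vacuolar alkaline phosphatase, and VTC1, VTC3 and VTC4 subunits of the vacuolar transporter chaperone, in which Vtc4 makes polyphosphate. PHM8 encodes a nucleotide phosphatase and PHM6 a protein whose role is not settled. Kcs1 and Vip1 are kinases that make inositol pyrophosphates, molecules known to feed into phosphate signalling, while Arg82 and Ipk1 act earlier in the same pathway. Rpd3 is a histone deacetylase and Snt1 a subunit of the Set3 deacetylase complex.

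Several arrays stood apart and are named before the results that rest on them. The targeted gene KCS1 was at -5.29 and -0.30 on the pair of arrays for kcs1 in log growth, and the second also had IPK1 at -2.87. The second ipk1 array in log growth and the second in KCl carried no KCS1 value, while the other ipk1 arrays had KCS1 between -0.30 and -0.06. IPK1 was missing from all 5 ipk1 arrays, and LEU2 was at -5.12 and -3.93 on these 2, against -4.49 to -3.76 on the other ipk1 arrays. Over all genes these 2 arrays correlated with each other at r = 0.85, but with the other ipk1 arrays of their conditions only at r = 0.09 to 0.35. The second ipk1 log array correlated with the first kcs1 log array at r = 0.53. The second kcs1 log array and these 2 ipk1 arrays are called the discordant arrays. They also differ from their partners in the 10 genes, and they were picked out after these values had been seen. All arrays were kept in the fit. Counts without these 3 are given beside some of its counts and for others only in the section on processing. The shares of all genes given here belong to the fit with all arrays. All genes were also counted without these 3, but those shares are not printed. Counts without these 3 therefore stand without a share and cannot be read against the shares given. The other doubtful arrays are those labelled kcs1vip1 in H2O2, with LEU2 at 3.19 and 1.57 against -4.41 to -3.97 on the kcs1vip1 log and KCl arrays, and the array labelled kcs1vip1 in heat, with VIP1 at -0.01. The single wild type rapamycin array was doubted too, with IPK1 at 2.97 and a median of 0.38 over all genes. The dye-swapped Vip1D487A arrays correlated with their unswapped partners at only r = 0.02 in log growth and 0.15 in KCl. Values so near 0 do not settle the sign of these swapped arrays. The dye-swapped wild type KCl array, as deposited, correlated with its 2 partners at r = 0.89 and 0.91.

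KCl in wild type cells lowered 8 of the 10 phosphate genes, while PHM8 rose and PHO8 did not pass. PHM6 had values of -5.50, -5.10 and -5.71 on the 3 arrays, a mean fall of 43.3-fold (-5.44 ± 0.31 SD, adjusted p = 3.78e-06). All 3 arrays lay within 1 log2 unit of each other and far below 0. Among the acid phosphatases PHO12 gave -4.30, -4.77 and -3.96, PHO11 -3.83, -4.04 and -3.55, and PHO5 -2.80, -2.69 and -2.16. Their adjusted p-values were 1.09e-12, 2.96e-08 and 0.00552. PHO81, the gene of the kinase inhibitor, had -2.34, -2.69 and -2.83 (mean -2.62 ± 0.25, adjusted p = 1.85e-10). The VTC genes fell by unequal amounts, VTC3 with values of -2.19, -3.06 and -3.12, VTC4 with -1.27, -2.24 and -2.10, and VTC1 with -2.07, -1.03 and -1.10. Their means were -2.79 ± 0.52, -1.87 ± 0.52 and -1.40 ± 0.58, with adjusted p-values of 3.89e-09, 7.54e-08 and 0.0068.

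PHM8 moved the other way in KCl, at 1.65, 2.50 and 2.61 (mean 2.25 ± 0.53, adjusted p = 3.68e-06). PHO8 did not pass the test, with 0.69 on the dye-swapped array and -0.81 and -0.78 on the other two (adjusted p = 0.361). The dye-swapped array was also the least negative for VTC3 and VTC4 and the most negative for VTC1, and whether the dye bears on these values was not tested. In all, 8 of the 10 genes fell and 1 rose, where 31.3% of all genes tested fell and 29.6% rose. The median of the 10 was -2.58 against -0.02 over all genes. Leaving out any 1 of the arrays kept the count of called genes at 9.

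Other Pho4 targets, from a list of 8 of which 7 were measured, fell in 6 cases and rose in 1. PHO84, the high-affinity phosphate transporter gene, was at -6.12 and GIT1, a glycerophosphoinositol transporter gene, at -3.69. The exception, GPP2 at 8.55, encodes a glycerol-phosphate phosphatase known for its part in osmotic stress. Among 5 regulators PHO4 fell (-0.80, adjusted p = 0.00153), PHO85 (0.49) and PHO2 (0.68) rose, and PHO80 (0.12) and PLC1 (-0.26) did not pass. Of 4 polyphosphate enzymes VTC2, another chaperone subunit, fell by 1.60, the exopolyphosphatase PPX1 fell by 0.50 and the endopolyphosphatase PPN1 rose by 0.78, while DDP1 (0.07) did not pass. PHO3, an acid phosphatase gene not under phosphate control, was at -4.25. The 3 low-affinity carrier genes had 1 fall and 2 that did not pass.

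**Figure D1:**
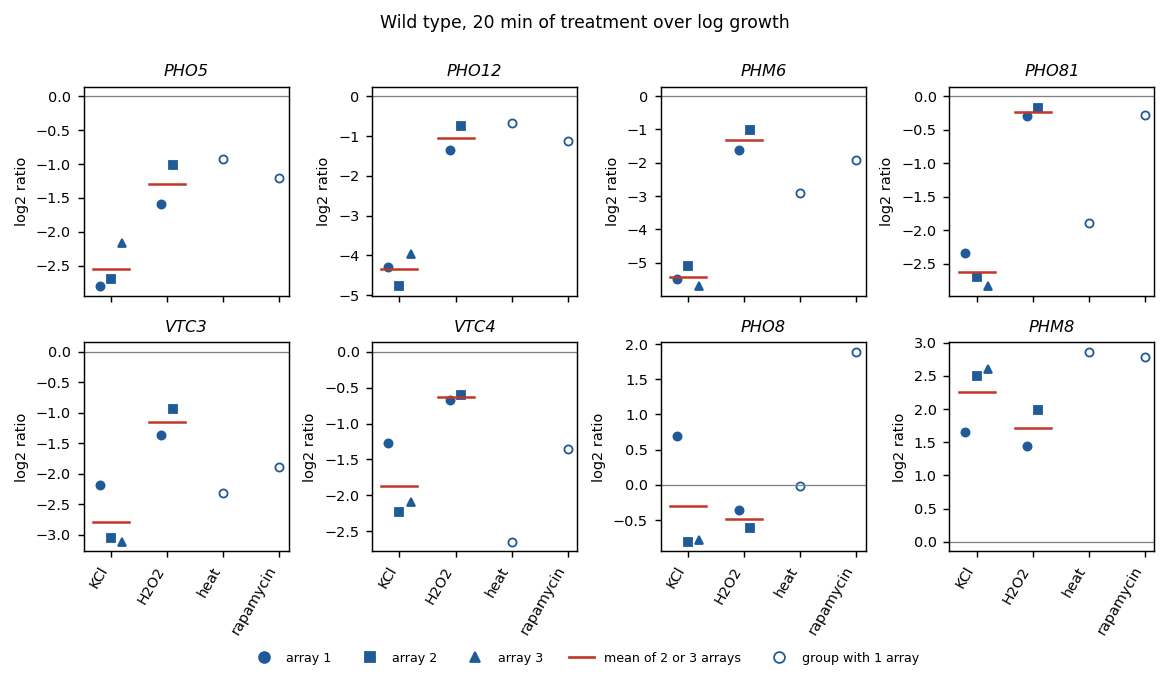
Log2 ratio (vertical axis) of the genes in wild type under KCl, H2O2, heat and rapamycin over wild type in mid-log growth, with a point per array and a bar at the mean. PHM6 lies lowest in KCl, and PHM8 is above 0 on every array shown.

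Oxidative stress in wild type cells gave smaller changes in 2 arrays. PHM8 was at 1.44 and 1.99 (mean 1.72 ± 0.39, adjusted p = 0.0028), VTC3 at -1.37 and -0.93 (adjusted p = 0.0173) and PHO12 at -1.36 and -0.76 (adjusted p = 0.0423). These 3 genes passed, 1 higher and 2 lower, beside 22.0% of all genes higher and 21.4% lower. PHO5, at -1.59 and -1.01, PHO11, at -1.42 and -0.74, and PHM6, at -1.61 and -1.02, were below 0 on both arrays without passing (adjusted p = 0.282, 0.137 and 0.349). The fit gives each gene 1 spread over all groups, so the discordant kcs1 and ipk1 arrays widen the error of these genes everywhere. Without them 6 genes passed, and without either H2O2 array 0 or 1 did.

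H2O2 differed from KCl in 6 of the 10 genes, all higher in H2O2, beside 18.0% of all genes. The H2O2 minus KCl difference was 4.12 ± 1.42 (SE) for PHM6, 3.28 ± 0.55 for PHO12, 2.73 ± 0.76 for PHO11 and 2.38 ± 0.41 for PHO81 (adjusted p = 0.0246, 1.95e-05, 0.00569 and 3.16e-05). VTC3 (1.64 ± 0.50, adjusted p = 0.0119) and VTC4 (1.24 ± 0.39, adjusted p = 0.0147) also differed. PHM8 responded in the same direction to both, with a difference of -0.54 ± 0.59 (adjusted p = 0.511). The count was 2 to 5 when an array was left out and 1 after arrays were scaled to the same spread.

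Heat and rapamycin had 1 wild type array each and were not tested, because a gene needed values on 2 arrays of a group. At 42 °C PHM6 was at -2.92, VTC4 at -2.65, VTC3 at -2.32 and PHO81 at -1.89, while PHM8 was at 2.86. PHO5 (-0.92), PHO11 (-0.56) and PHO12 (-0.67) were nearer to 0. Thus 4 of the 10 genes were past 2-fold lower and 1 past 2-fold higher, beside 18.3% and 15.9% of all genes. With 200 nM rapamycin, 6 genes were past 2-fold lower, from PHM6 at -1.93 and VTC3 at -1.90 to PHO11 at -1.03, beside 16.9% of all genes. PHM8 (2.79) and PHO8 (1.89) were past 2-fold higher, beside 28.2%. The median of all genes on the rapamycin array was 0.38, so each of its values is that much higher than relative to the array's middle.

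The vip1 mutant had the lowest acid phosphatase ratios of the replicated mutants in log growth. PHO5 was at -4.71 and -3.88, PHO12 at -4.65 and -3.95, PHO11 at -4.38 and -3.65 and PHM6 at -4.98 and -4.24. All 8 values lie below -3, and the mean falls were 19.6-fold for PHO5, 19.7-fold for PHO12, 16.2-fold for PHO11 and 24.4-fold for PHM6 (adjusted p = 0.0027, 4.8e-08, 5.22e-05 and 0.00465). VTC4 was at -1.57 and -1.49 (adjusted p = 0.00099), PHO81 at -1.44 and -1.06 (adjusted p = 0.00711) and VTC3 at -1.29 and -0.99 (adjusted p = 0.0379). VTC1 (-0.76 and -1.27), PHM8 (-1.14 and -0.71) and PHO8 (-0.60 and -0.27) did not pass. Thus 7 of 10 genes fell, beside 9.97% of all genes, and without either array the count was 2 to 4. Of the 7 other Pho4 targets 5 fell, among them GIT1 (adjusted p = 0.000351), the sodium-coupled phosphate transporter gene PHO89 at -3.95 and SPL2, whose product limits low-affinity phosphate uptake, at -1.86. PHO4 was lower as well (-1.05, adjusted p = 0.00564).

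In KCl the vip1 mutant remained below wild type in KCl. PHO5 gave -3.54, -2.74 and -3.29 (mean -3.19 ± 0.41, adjusted p = 0.00953), PHO11 -2.46, -2.45 and -2.27 (adjusted p = 0.00219) and PHO12 -2.35, -2.11 and -1.91 (adjusted p = 0.000242). VTC3 (-1.26 ± 0.05), PHO8 (-1.08 ± 0.26) and VTC4 (-0.84 ± 0.10) also fell (adjusted p = 0.0122, 0.0145 and 0.0288). PHM6, at -1.26, -0.85 and -1.47, did not pass (adjusted p = 0.391), nor did PHO81 (-0.73 ± 0.08), VTC1 (-0.58 ± 0.20) or PHM8 (-0.10 ± 0.12). That made 6 genes lower, beside 4.77% of all genes, with 2 left after any 1 array was dropped.

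The kcs1 mutant in KCl was above wild type in KCl in 8 genes, opposite in direction to vip1. PHM6 was at 4.90 and 5.19 and PHO5 at 4.19 and 4.16, means 33.0-fold and 18.1-fold above wild type in KCl (adjusted p = 0.00438 and 0.00664). The other acid phosphatases followed, PHO11 with 3.41 and 3.54 (adjusted p = 0.000507) and PHO12 with 2.39 and 2.97 (adjusted p = 0.000254). PHO81 was at 2.35 and 2.06, VTC1 at 2.57 and 2.90, VTC4 at 1.18 and 1.98 and VTC3 at 1.53 and 1.44 (adjusted p = 7.79e-05, 0.00179, 0.00145 and 0.0169). No array of these 8 genes was below 1. PHO8 (0.85 and 0.08) and PHM8 (0.65 and 0.52) did not pass. The 8 rises stand beside 2.71% of all genes higher, and the count was 1 or 4 when either array was dropped. Among the other Pho4 targets PHO89 (5.40), PHO84 (5.32), SPL2 (4.07) and VTC2 (1.07) rose, and the remaining 3 did not pass. PHO80, the cyclin gene of the inhibitory kinase, rose by 0.90 (adjusted p = 0.00484).

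In log growth the 2 arrays labelled kcs1 disagreed. PHO5 was at 4.85 on the first, where KCS1 was low, and at -0.60 on the second, where KCS1 was near 0. PHM6 was at 4.05 and -0.03, PHO11 at 4.03 and 0.16, PHO12 at 2.65 and 0.50 and VTC1 at 2.47 and 0.73. None of the 10 genes passed in limma (4 at an unadjusted p under 0.05), beside 0.254% of all genes higher and 0.186% lower. Without the discordant arrays the first kcs1 array, taken to vary like the other groups, gave 7 rises, of PHO5, PHO11, PHO12, PHO81, PHM6, PHM8 and VTC1. That setting was chosen with these values in view.

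**Figure D2:**
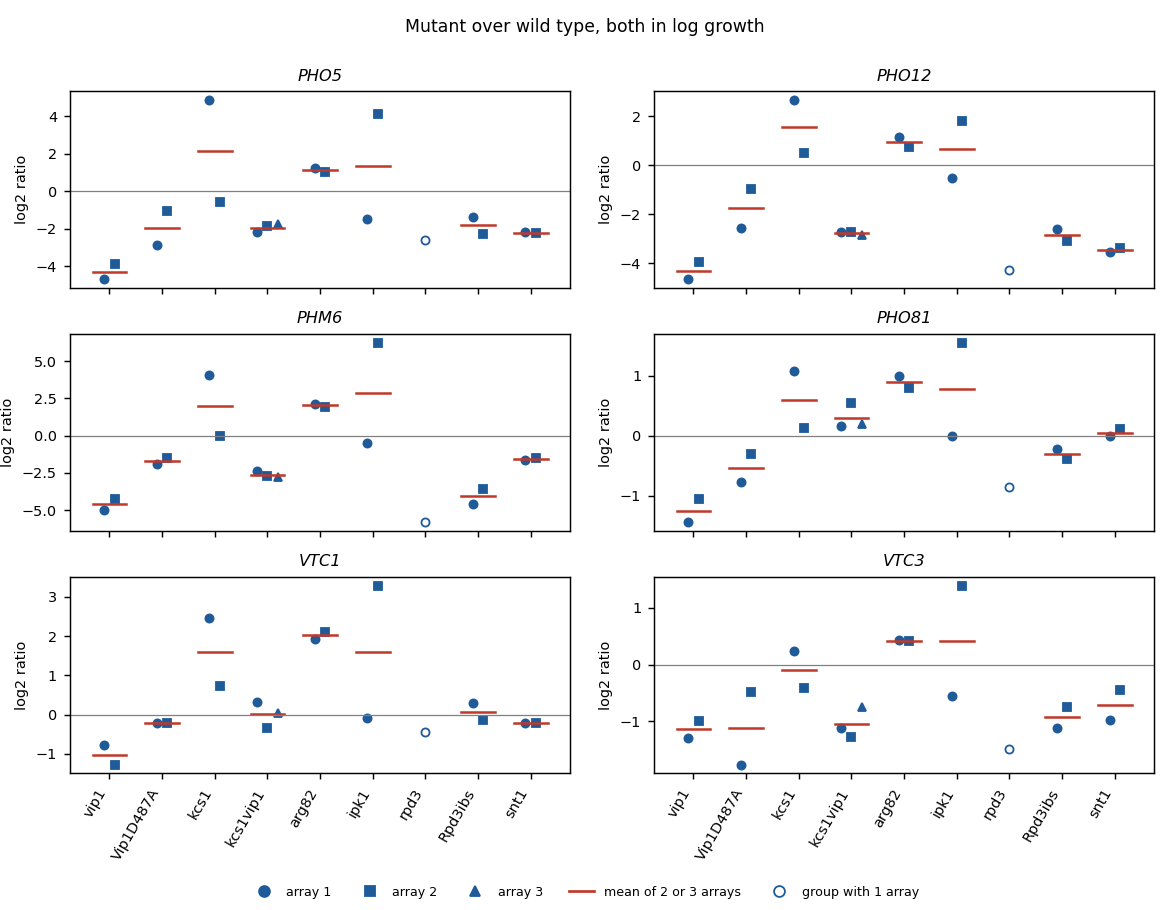
Log2 ratio over wild type (vertical axis) of the genes in each mutant in mid-log growth, with a point per array and a bar at the mean. The kcs1 and ipk1 points lie far apart for PHO5 and PHM6, while both vip1 points lie below -3 for PHO5, PHO12 and PHM6.

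The arg82 mutant resembled kcs1 in direction. In log growth VTC1 rose (1.94 and 2.11, adjusted p = 0.0104) and so did PHO81 (1.00 and 0.80, adjusted p = 0.048), 2 of 10 genes beside 7.63% of all genes. Every one of the 10 genes was above 0 on both arrays, among them PHM6 at 2.14 and 1.95 (adjusted p = 0.192), PHO11 at 1.37 and 0.79 and PHO5 at 1.24 and 1.04. Without either arg82 array 0 passed, and without the discordant arrays 7 did. Against wild type in KCl, 8 genes passed as higher, beside 13.9% of all genes, and 6 to 8 genes passed when an array was left out. PHM6 gave 3.57, 3.00 and 4.08 (mean 3.55 ± 0.54, adjusted p = 0.00338), PHO5 2.32, 2.32 and 3.19 (adjusted p = 0.0114) and VTC1 2.62, 2.04 and 3.00 (adjusted p = 5.5e-05). PHO81 was at 2.21, 1.62 and 2.21 (adjusted p = 7.45e-07). PHO11 (1.87 ± 0.54), PHO12 (1.54 ± 0.56), VTC3 (1.45 ± 0.12) and VTC4 (1.17 ± 0.41) also rose. PHM8 (-0.33 ± 0.16) and PHO8 (0.50 ± 0.36) did not pass. PHO89 (6.21), PHO84 (4.88), SPL2 (3.67), GIT1 (2.19), VTC2 (1.03) and PHO86 (0.62) rose among the 7 other Pho4 targets, while PHO4 was lower (-0.65, adjusted p = 0.0196).

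The ipk1 arrays fell into unlike sets in both conditions. In log growth PHO5 was at -1.48 and 4.13, PHM6 at -0.48 and 6.23, PHO11 at -0.82 and 2.96 and VTC1 at -0.08 and 3.29, the second array being a discordant one. PHM8 (0.03 and 2.85, adjusted p = 0.0216) and VTC1 (adjusted p = 0.0298) passed as higher, beside 12.6% of all genes. With only the second array 8 genes passed and with only the first none did, VTC1 then standing at -0.08. In KCl PHM6 was at 0.15, 7.99 and 0.06 and PHO5 at -1.48, 3.79 and -1.75, again with the second array apart. PHO12, however, was above 0 on all 3 arrays, at 2.40, 2.78 and 1.26 (mean 2.15 ± 0.79, adjusted p = 0.000144), as was PHO11, at 1.33, 3.24 and 0.95 (adjusted p = 0.0072). PHO81 (0.97 ± 1.22), PHM6 (2.73 ± 4.55) and VTC1 (1.80 ± 1.97) passed as higher with an SD wider than the mean, and PHO8 (-0.77 ± 0.52, adjusted p = 0.0461) as lower. These 5 rises and 1 fall stand beside 11.4% and 12.4% of all genes. Without the discordant arrays PHO5 was lower at -1.61 (adjusted p = 0.00255) while PHO11 and PHO12 stayed above 0, so the acid phosphatase genes then had opposite signs.

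The double mutant kcs1vip1 was below wild type in log growth. PHO12 gave -2.71, -2.70 and -2.84 (mean -2.75 ± 0.08, adjusted p = 1.86e-07), PHO11 -2.17, -2.35 and -2.24 (adjusted p = 0.000411), PHM6 -2.37, -2.72 and -2.77 (adjusted p = 0.0214) and PHO5 -2.20, -1.87 and -1.76 (adjusted p = 0.0486). PHM8 was at -1.41, -2.02 and -1.99 (adjusted p = 0.000278), VTC3 at -1.11, -1.28 and -0.74 (adjusted p = 0.0102) and PHO8 at -0.81, -1.06 and -0.37 (adjusted p = 0.0359). PHO81 (0.30 ± 0.21) and VTC1 (0.01 ± 0.33) lay near 0, and VTC4 (-0.55 ± 0.42) did not pass. These 7 falls stand beside 19.0% of all genes, and 3 to 5 of 10 genes passed when an array was left out. Of the other Pho4 targets only GIT1 passed (-3.63), and PHO84 was at -0.78 (adjusted p = 0.199). PHO4 was lower at -1.82 (adjusted p = 4.22e-08) and PHO80 higher at 0.53 (adjusted p = 0.00976).

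In KCl 4 of the 10 genes in kcs1vip1 differed from wild type in KCl, 3 higher and 1 lower. PHO5 gave -0.46, 0.44 and 0.76, PHO11 -0.39, 0.03 and 0.16 and PHM6 -0.25, -0.10 and 0.18, with values on both sides of 0. PHO12, at -1.17, -0.49 and -0.52 (adjusted p = 0.0793), and PHO8, at -0.67, -0.55 and -0.60 (adjusted p = 0.0729), were below 0 on all 3 arrays without passing, and VTC3 (0.47 ± 0.20, adjusted p = 0.222) was above 0. VTC1 (1.07 ± 0.13, adjusted p = 0.0432), PHO81 (0.85 ± 0.14, adjusted p = 0.00734) and VTC4 (0.64 ± 0.41, adjusted p = 0.0322) rose, and PHM8 fell, at -1.47, -0.81 and -1.97 (adjusted p = 0.00218). The 3 rises stand beside 24.8% of all genes and the 1 fall beside 25.6%, and 1 to 3 genes passed when an array was left out. Of the 7 other Pho4 targets 5 passed as higher than in wild type in KCl, among them PHO89 by 3.10 and SPL2 by 1.83. GPP2 passed as lower, by 1.17, and PHO3 as higher, by 2.59.

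**Figure D3:**
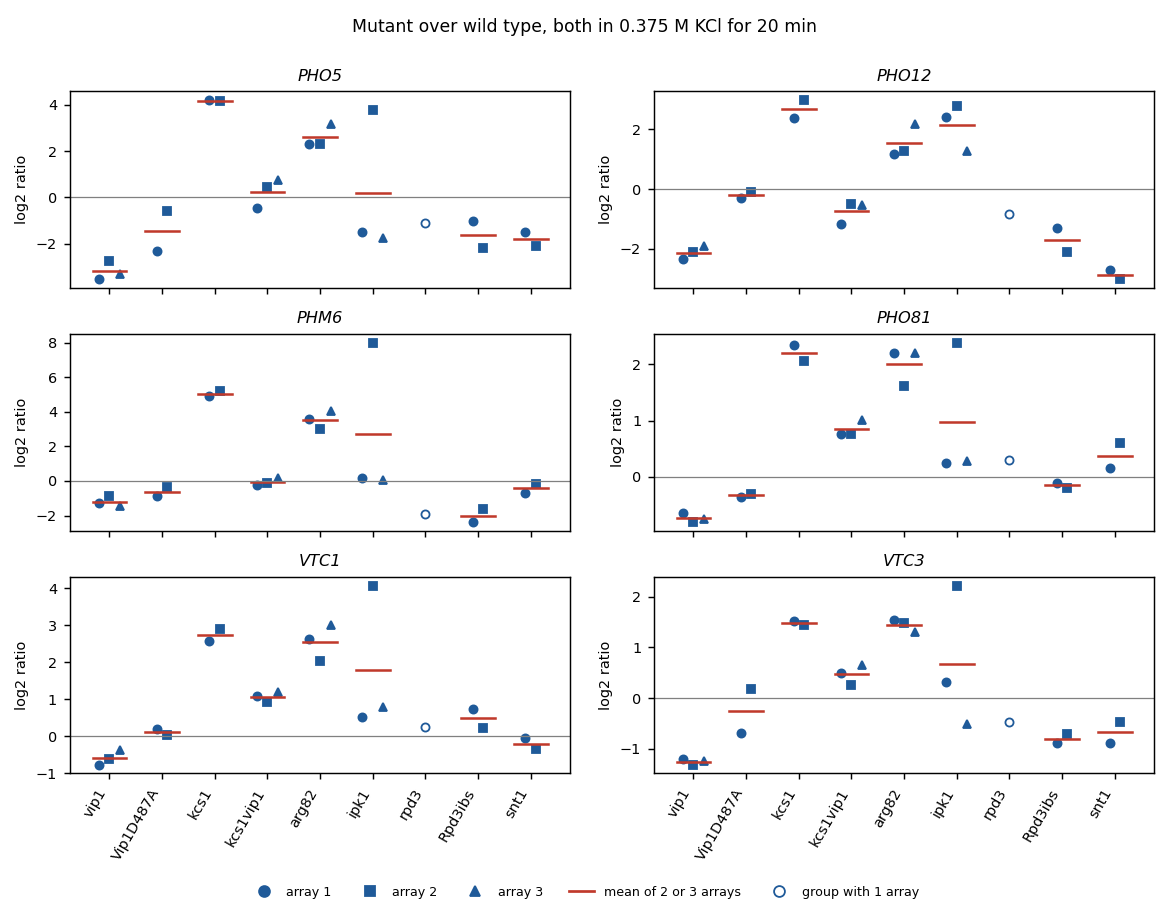
Log2 ratio over wild type in KCl (vertical axis) of the genes in each mutant after 20 min in KCl, with a point per array and a bar at the mean. The kcs1 and arg82 points lie above 1 for PHO5 and PHM6, and the kcs1vip1 points of both genes lie around 0.

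Differences between these mutants were tested directly. In KCl kcs1 exceeded vip1 in 8 of 10 genes, by 7.37 ± 1.24 (SE) for PHO5, 6.24 ± 1.42 for PHM6, 5.87 ± 0.76 for PHO11 and 4.80 ± 0.55 for PHO12 (adjusted p = 0.000907, 0.0258, 1.72e-05 and 1.53e-06). The 8 stand beside 0.368% of all genes higher, 21 of 5702. In log growth 7 genes were higher in kcs1, beside 4.64%, with PHO5 at 6.42 ± 1.35 (adjusted p = 0.00363). The kcs1 side there rests on arrays that disagree, and leaving out an array gave 2 to 8. In KCl the range was 4 to 7.

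In KCl the acid phosphatase means of the double mutant lay between those of the single ones. There kcs1vip1 exceeded vip1 in 6 genes, beside 9.12% of all genes, including PHO5 by 3.44 ± 1.11, PHO11 by 2.33 ± 0.68, PHO81 by 1.58 ± 0.37 and VTC3 by 1.73 ± 0.45 (adjusted p = 0.0298, 0.0166, 0.00287 and 0.00752). It was below kcs1 in 6 genes, beside 5.66%, with PHM6 at -5.10 ± 1.42, PHO5 at -3.93 ± 1.24, PHO11 at -3.54 ± 0.76 and PHO12 at -3.41 ± 0.55 (adjusted p = 0.0131, 0.028, 0.00155 and 5.66e-05). PHM8 averaged -1.42 in kcs1vip1, against 0.58 in kcs1 (adjusted p = 0.0187), and did not pass against vip1 (-1.31 ± 0.53, adjusted p = 0.0875). In log growth kcs1vip1 exceeded vip1 in PHO12 and PHO81, 2 genes beside 15.7%, by 1.55 ± 0.55 and 1.55 ± 0.41 (adjusted p = 0.0307 and 0.00504). It was below kcs1 in 5 genes beside 3.30%, among them PHO12 at -4.33 ± 0.55 (adjusted p = 2.81e-06) and PHM8 at -2.72 ± 0.59 (adjusted p = 0.00271). Leaving out an array gave 0 to 2 genes against vip1 and 1 to 5 against kcs1 in log growth, and 3 to 5 and 2 to 5 in KCl. The kcs1 log arrays disagree here too, PHO5 being at 4.85 and -0.60. These comparisons share the kcs1vip1, kcs1 or vip1 arrays, so they are not independent of each other.

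A mutant's ratio in KCl minus its ratio in log growth is its KCl response minus that of wild type. In kcs1vip1 this difference was 2.19 ± 0.68 for PHO11, 2.02 ± 0.49 for PHO12, 1.51 ± 0.45 for VTC3 and 1.19 ± 0.35 for VTC4 (adjusted p = 0.0153, 0.00201, 0.0114 and 0.0104). The KCl means were -0.07, -0.73, 0.47 and 0.64 against log means of -2.25, -2.75, -1.04 and -0.55, and on each of these 4 genes all 3 KCl arrays lay above all 3 log arrays. These 4 genes stand beside 13.4% of all genes higher. PHM6 (2.56 ± 1.27, adjusted p = 0.138), PHO5 (2.19 ± 1.11, adjusted p = 0.145), VTC1 (1.06 ± 0.62, adjusted p = 0.219) and PHO81 (0.55 ± 0.37, adjusted p = 0.286) did not pass, although their arrays did not overlap either. Lack of overlap therefore does not set the 4 called genes apart, and its share over all genes was not counted. On the 2 slides that held both a kcs1vip1 log and KCl array, the difference was 1.78 and 2.38 for PHO11, 1.54 and 2.21 for PHO12, 1.61 and 1.54 for VTC3 and 1.48 and 0.71 for VTC4. The VTC4 call was lost without the first log array (0.95, adjusted p = 0.0627) or the third KCl array (0.95, adjusted p = 0.0693). Without the discordant arrays 8 of the 10 genes passed, and the share of all genes in that setting is not printed.

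For vip1 PHO12 alone passed (2.18 ± 0.55, adjusted p = 0.0167), 1 gene beside 2.69% of all genes, with a KCl mean of -2.12 against a log mean of -4.30. PHM6 had a larger difference, 3.42 ± 1.42, without passing (adjusted p = 0.146), and on the 2 shared slides it was 3.72 and 3.39. Wild type KCl over log growth was itself at -4.34 for PHO12 and -5.44 for PHM6. Signal over background at ratios this low is unknown, and whether it bears on these differences was not tested. The vip1 call was lost without the first log array (1.83, adjusted p = 0.26), the second (2.53, adjusted p = 0.0691) or the third KCl array (2.07, adjusted p = 0.0556). In limma no member passed for kcs1, arg82, ipk1, Rpd3ibs, snt1 or Vip1D487A, with 3, 2, 2, 0, 0 and 1 at an unadjusted p under 0.05. Of all genes tested 0% were higher and 0% lower in kcs1, snt1 and Vip1D487A. In arg82 2.51% were higher and 1.31% lower, in ipk1 0.0180% and 0%, and in Rpd3ibs 4.29% and 2.57%. Whether the mutants differ from each other in this response was not tested.

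Added to the wild type response, these differences give each mutant's own KCl response, which shares the 3 wild type KCl arrays across all mutants. PHO12 ranged from -3.77 ± 0.69 (SE) in snt1 and -3.75 ± 0.65 in arg82 to -2.17 ± 0.65 in vip1, against -4.34 ± 0.35 in wild type. PHO81 ran from -2.46 ± 0.52 in Rpd3ibs to -1.02 ± 0.52 in kcs1, against -2.62 ± 0.26 in wild type. PHM8 was positive in all 8 mutants, from 1.11 ± 0.70 in arg82 to 3.08 ± 0.70 in vip1, against 2.25 ± 0.37 in wild type. In limma it did not pass in arg82, ipk1 or Rpd3ibs (adjusted p = 0.237, 0.119 and 0.105). Each sum includes the wild type value, so the signs are not independent of wild type or of each other. For kcs1vip1 the sum can be set beside 1 array that compared it in KCl with itself in log growth. PHO12 was -2.32 ± 0.60 by the sum and -3.41 on that array, and PHO11 -1.62 ± 0.83 and -3.09. PHM6 was at -2.87 ± 1.56 and -2.59, and PHM8 at 2.64 ± 0.64 and 2.56. VTC3 was -1.28 ± 0.55 by the sum and -2.26 on that array, and VTC4 -0.68 ± 0.43 and -1.14. For PHO11, PHO12, VTC3 and VTC4 the array lay nearer than the sum to wild type (-3.81, -4.34, -2.79 and -1.87). For PHM6, PHO81 and PHO8 it did not, and whether the array and the sum differ was not tested. That array had 8 genes past 2-fold lower and 1 higher, beside 13.1% and 15.4% of all genes.

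**Figure D4:**
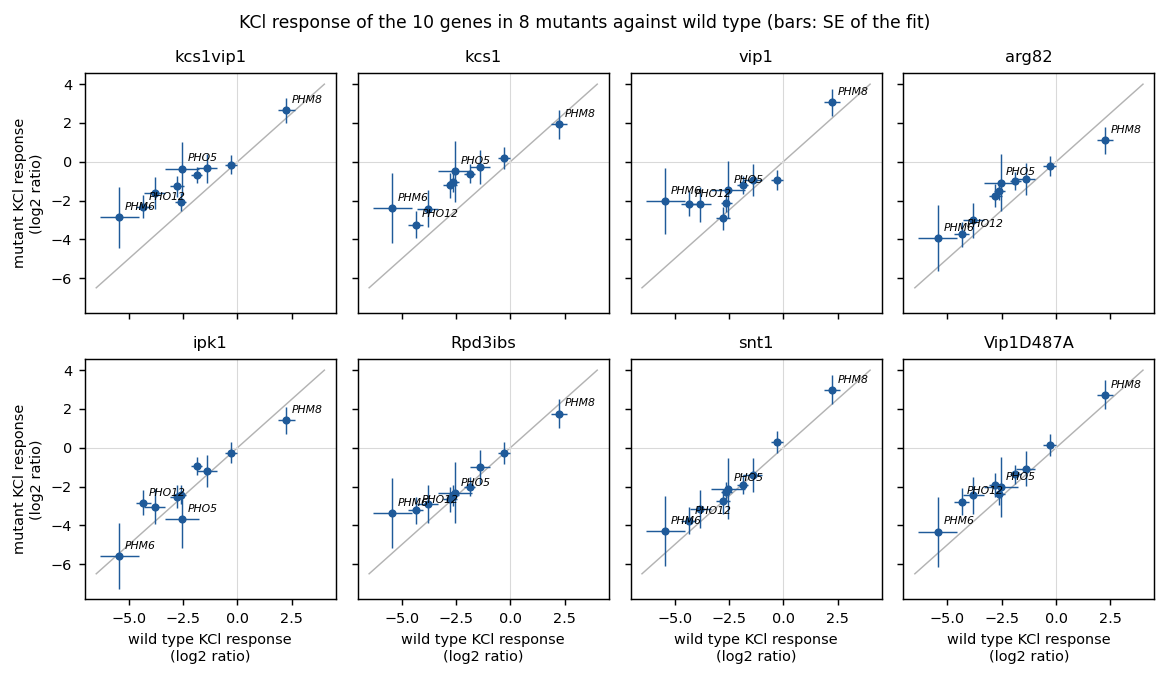
KCl response of the 10 genes in each of 8 mutants (vertical axis, log2) against the response in wild type (horizontal axis, log2), with SE of the fit as bars. Each mutant value includes the wild type value it is plotted against. Points above the diagonal have a higher KCl response in the mutant, a difference that passed the test for 4 of the 10 genes in kcs1vip1, and PHM8 is the point at the right in every panel.

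In snt1 and Rpd3ibs the acid phosphatase genes PHO11 and PHO12 fell in both conditions, while PHO81 and VTC1 did not pass. In snt1 in log growth PHO12 was at -3.52 and -3.36 (mean fall 10.8-fold, adjusted p = 2.43e-06) and PHO11 at -3.48 and -3.11 (adjusted p = 0.00072). PHO8 was at -1.55 and -1.67 (adjusted p = 0.00368), the lowest mean of PHO8 in any group. PHO5, at -2.20 and -2.26, did not pass (adjusted p = 0.127), PHM6 was at -1.63 and -1.50, and PHO81 (-0.01 and 0.11) and VTC1 (-0.21 and -0.20) were near 0. In KCl snt1 kept PHO12 at -2.72 and -3.02 (adjusted p = 7.2e-05) and PHO11 at -2.50 and -2.81 (adjusted p = 0.0056) below wild type, while PHM6 was at -0.70 and -0.15. The counts were 3 lower in log growth beside 5.51% and 2 lower in KCl beside 4.57%, and leaving out an array gave 2 and 1.

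Rpd3ibs in log growth had PHM6 at -4.57 and -3.57 (adjusted p = 0.00757), PHO12 at -2.58 and -3.08 (adjusted p = 1.03e-05) and PHO11 at -2.55 and -2.79 (adjusted p = 0.00126). These 3 falls stand beside 10.1% of all genes. PHO5 was at -1.38 and -2.28 (adjusted p = 0.175), and PHO81 (-0.22 and -0.39) and VTC1 (0.29 and -0.14) were near 0. Against wild type in KCl, PHO11 (-1.51 and -2.02, adjusted p = 0.021), PHO12 (-1.30 and -2.11, adjusted p = 0.00229) and VTC4 (-0.41 and -1.15, adjusted p = 0.0474) passed as lower, beside 16.2% of all genes. PHM6 was at -2.37 and -1.64 there and did not pass (adjusted p = 0.168). Without the discordant arrays 8 genes passed in KCl, and without either Rpd3ibs KCl array 0 or 1 did. GIT1 (-2.88) was the only other Pho4 target to pass in log growth.

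The rpd3 deletion had 1 array per condition and was not tested. In log growth PHM6 was at -5.80, the lowest PHM6 value of any array, with PHO12 at -4.28, PHO11 at -4.08, PHO5 at -2.60, VTC3 at -1.48 and VTC4 at -1.08. These 6 genes were past 2-fold lower, beside 8.70% of all genes. In KCl PHM8 was lowest, at -2.19, and PHM6 (-1.90), PHO11 (-1.23) and PHO5 (-1.10) were also past 2-fold lower, 4 genes beside 15.2%. PHO81 was at -0.85 in log growth and 0.30 in KCl.

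Vip1D487A gave no call in limma in log growth (6 genes at an unadjusted p under 0.05) or in KCl (0), beside 0% of genes higher and 0.0359% lower in log growth and 1.58% and 0.569% in KCl. In log growth PHO5 was at -2.90 and -1.05, PHO12 at -2.55 and -0.97 and PHM6 at -1.93 and -1.50, all negative, with the dye-swapped array nearer to 0. Scaling arrays to the same spread gave 7 calls in log growth, and leaving out the discordant arrays gave 5. The shares above belong to the fit as reported and not to these settings, whose shares are not printed. If the sign of the swapped arrays is turned, PHO5, PHO12 and PHM6 have 1 positive and 1 negative value each. In KCl PHO5 was at -2.33 and -0.57, and all values of the other 9 genes lay between -1.03 and 0.20.

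On the arrays labelled kcs1vip1 in H2O2 PHM8 was at 3.18 and 1.67 (adjusted p = 0.000596) and was the only gene of the 10 to pass, beside 3.34% of all genes higher. The array of kcs1vip1 in H2O2 over kcs1vip1 in log growth had PHM8 at 1.98, the only one of the 10 past 2-fold there, beside 3.65% of all genes higher. Over all genes the labelled H2O2 arrays correlated with it at r = 0.67 and 0.60. The kcs1vip1 heat array had PHM8 at 3.90, PHM6 at -3.41, PHO81 at -1.69 and VTC3 at -1.04, with 15.4% of all genes past 2-fold higher and 8.78% lower, and the wild type heat array had 2.86, -2.92, -1.89 and -2.32. Those 2 arrays correlated at r = 0.77, although the first is labelled as a mutant over wild type and the second as heat over log growth. Rapamycin added to KCl in kcs1vip1 changed none of the 10 genes in limma (0 also at an unadjusted p under 0.05), beside 2.48% of genes higher and 2.58% lower. Its largest means were PHM8 at 0.60 ± 0.15, PHO8 at 0.53 ± 0.38 and PHO81 at 0.49 ± 0.37.

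**Figure D5:**
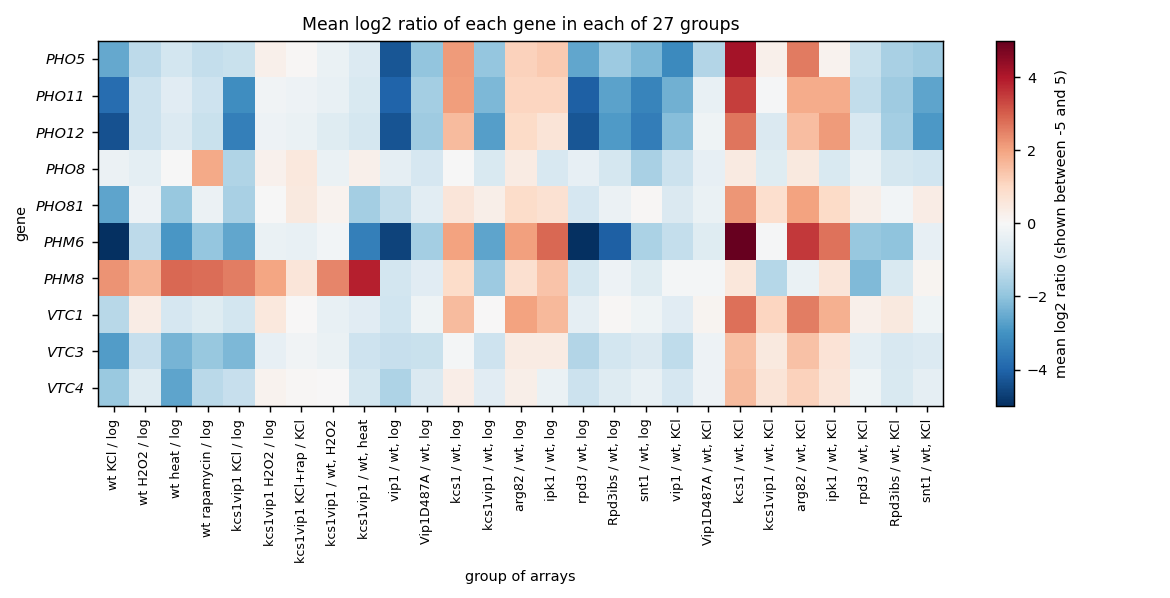
Mean log2 ratio (colour, shown between -5 and 5) of each of the 10 genes (rows) in each of the 27 groups (columns). Most rows share the same red and blue blocks, and the PHM8 row is red under each wild type stress, where the others are mostly blue.

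Across the 54 arrays the genes varied by different amounts. PHM6 ran from -5.80 to 7.99 with a median of -0.95, PHO5 from -4.71 to 4.85 with a median of -1.12, PHO11 from -4.38 to 4.03 and PHO12 from -4.77 to 2.97. The SD over arrays was 2.99 for PHM6, 2.20 for PHO5, 2.14 for PHO11 and 2.08 for PHO12, beside a median of 0.60 over genes with a value on every array. PHO8 was the narrowest, from -1.87 to 1.89 with an SD of 0.75, then VTC4 (0.94), VTC3 (1.15), PHO81 (1.18), VTC1 (1.29) and PHM8 (1.48). Group means put kcs1 in KCl highest for every gene but PHO8, whose highest was wild type with rapamycin, and PHM8, whose highest was kcs1vip1 in heat. For PHO5 the next below were arg82 in KCl at 2.61 and kcs1 in log growth at 2.12, and the arrays of these 2 groups overlap. The lowest means were those of wild type KCl for PHO12, PHO81, VTC1 and VTC3, of vip1 in log growth for PHO5, of rpd3 in log growth for PHO11 and PHM6, of wild type heat for VTC4, of snt1 in log growth for PHO8 and of rpd3 in KCl for PHM8. For PHO12 the 3 lowest groups were wild type KCl (-4.34), vip1 in log growth (-4.30) and rpd3 in log growth (-4.28, 1 array). Whether these groups differ was not tested, so their order is not settled.

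PHO11 and PHO12, whose coding sequences are nearly identical, followed each other at Pearson r = 0.98 over the 54 arrays. Their difference, PHO11 minus PHO12, ran from -1.07 to 1.38 with a median of 0.21, and 43 arrays were within 0.5. Whether each probe measured 1 gene alone was not tested. PHO5 correlated with PHO11 at r = 0.91, PHO81 with VTC3 at 0.92 and VTC3 with VTC4 at 0.91. PHM8 correlated with the other 9 genes at r = -0.25 to 0.31 and PHO8 at 0.25 to 0.50. These arrays share strains, slides and a wild type reference, so the values describe this set only.

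Among 3663 genes with a mean in all 27 groups, the profile of the acid phosphatases was most like those of SPL2 (r = 0.83), the flocculin gene FLO5 (0.80), PHO89 (0.79), PHO84 (0.78) and GIT1 (0.76). That of the VTC genes was most like PHO84 (0.91), SPL2 (0.85), VTC2 (0.85), PHO89 (0.80) and FLO5 (0.78). PHO81 was nearest to PHO84 (0.88), VTC2 (0.84) and SPL2 (0.79), and PHM6 to SPL2 (0.83), VTC2 (0.79) and PHO89 (0.79). PHM8 was nearest to FMS1 (0.85), GID8 (0.84), BDH1 (0.84), APA2 (0.84) and PHR1 (0.83), none of them in the lists of pathway genes. PHO8 was nearest to AFT2 (0.76) and FZF1 (0.70), which encode transcription factors. By rank correlation 3 or 4 of the 5 nearest genes were the same for the acid phosphatases, the VTC genes, PHO81 and PHM6, but 1 for PHO8 and 0 for PHM8.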

How the data were processed

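The authors deposited 1 table with a column of log2 ratios per array. The base was read as 2 from the values, and the authors' normalization is not given in these sources. The reference annotation served for names only. Of 6317 entries 61 control spots were left out, and probes of 1 symbol were averaged. In 3 columns with more decimals exact zeros (407 values) were set to missing. Arrays held 5216 to 6206 values. Intensities were not used, so signal over background is unknown. The sign of dye-swapped arrays was left unchanged.

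A linear model with 1 mean per group was run in limma (version 3.58.1, R version 4.3.3) on all genes of the 54 arrays in 27 groups, with 27 residual and 4.63 prior degrees of freedom and a prior SD of 0.369. A gene needed 2 values in each group tested. P-values were adjusted by Benjamini-Hochberg over all genes tested in each of 35 comparisons and in each mutant's own KCl response, with a threshold of 0.05. "Rose" and "fell" mean passing it. Values are means ± SD over arrays unless SE is named. The ratio against 0 leaves out any spread of the wild type RNA that its arrays share. Planned checks of promoter motifs and protein identity were not run, as no sequence was used here.

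The 10 genes and the lists of other pathway genes were chosen with earlier results of these data known. Named genes are the 10 genes, the altered genes, the list members with the largest and smallest values, and the 5 genes nearest in profile. PHO3 was taken out of the list of other Pho4 targets after its values were seen, since it is not known as one. LEU2 and the list members named as not passing or as regulators were added after their values were seen. On simulated data the model recovered 72.0% of genes with a log2 change of 1 and 100.0% with a change of 2 in wild type KCl, 45.0% and 86.0% in kcs1vip1 KCl minus log, and 24.0% and 74.0% in kcs1 KCl minus log. The changed genes were drawn at random from all genes tested. These rates therefore do not hold for more variable genes such as PHM6 and PHO5. Their SE in wild type KCl was 0.90 and 0.78, against 0.26 for PHO81. Figures used python 3.11.15 with numpy 2.4.6, pandas 2.3.3 and matplotlib 3.10.9. Alternatives were centring, scaling, slide blocks, zeros kept, the sign of swapped Vip1D487A arrays, genes on every array, robust moderation, doubted arrays left out and each array left out.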

Additional observations from a re-analysis of the deposited data

Results flagged for a closer look

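The KCl response of 5 gene and mutant pairs differed from that of wild type by the test of the difference itself, in limma. In kcs1vip1 the KCl minus log difference was 2.19 for PHO11, 2.02 for PHO12, 1.51 for VTC3 and 1.19 for VTC4. In vip1 it was 2.18 for PHO12. The kcs1vip1 genes stand beside 13.4% of all genes higher, and the vip1 gene beside 2.69%. PHO11 and PHO12 are nearly identical (r = 0.98 over arrays), and whether each probe measured 1 gene alone was not tested. The 3 KCl arrays lay above every log array for each of the 5 pairs. That also held for pairs that did not pass, among them PHM6, PHO5, PHO81 and VTC1 in kcs1vip1 and PHM6, PHO11, PHO5 and PHO81 in vip1. It therefore does not set the 5 pairs apart, and its share over all genes was not counted. On the 1 array of kcs1vip1 in KCl over itself in log growth, PHO11, PHO12, VTC3 and VTC4 were at -3.09, -3.41, -2.26 and -1.14. Their wild type KCl means were -3.81, -4.34, -2.79 and -1.87, and that array was not tested against them. The vip1 call was lost without either log array or without the third KCl array, and the VTC4 call in kcs1vip1 without the first log array or the third KCl array.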

How the results depend on the processing

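Each result was recomputed under the alternatives named with the methods and under 1 added after seeing the data, which leaves out the 3 discordant arrays. Outside leave-one-out, 3290 values of single genes were recomputed. Of these 3119 kept their direction and their side of the threshold, 54 no longer passed, 114 newly passed and 3 reversed. Leaving out each array gave 1190 more values, of which 1019 kept both, 154 no longer passed, 16 newly passed and 1 reversed. Of 329 counts among the 10 genes 36 moved by over 1.5 times, as did 136 of 448 counts over all genes. In the paragraphs below, counts among the 10 genes under an alternative are printed without the share of all genes in that setting. Array median centring, exact zeros kept, only genes on every array and robust moderation moved no count among the 10 genes that far. The number of arrays limits the precision, and signal over background was not used. By replicate number, no paired analysis was possible because the labels give none, and numbers given in accession order only name arrays. Some log and KCl arrays of a mutant share a slide, and that pairing was tested with the slide as a block. The cause of the changes was not tested.

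With arrays scaled to the same spread, the called genes among the 10 numbered 1 for wild type H2O2 (3 in the fit as reported), 3 for kcs1 log (0), 7 for Vip1D487A log (0), 0 for ipk1 log (2), 2 for kcs1vip1 KCl (4), 1 for Rpd3ibs KCl (3) and 2 for rapamycin in KCl (0). For KCl minus log they numbered 2 for kcs1 (0), 2 for vip1 (1) and 1 for arg82 (0). They were 5 for kcs1vip1 minus vip1 in log growth (2) and 1 for H2O2 minus KCl (6). With the sign of swapped Vip1D487A arrays turned they were 1 for arg82 log (2), 1 for kcs1vip1 minus vip1 log (2) and 3 for kcs1vip1 minus kcs1 log (5). With the slide as a random block, of correlation 0.298, they were 1 for ipk1 log (2) and 1 for arg82 KCl minus log (0). The slide as a fixed block could be set only for KCl minus log and for contrasts between mutants or stresses. It gave 1 for kcs1vip1 minus vip1 log and 3 for kcs1vip1 minus kcs1 log, and PHO8 in H2O2 minus KCl turned to 1.15 (-0.18 as reported). Without the arrays doubted from earlier results, kcs1 log had 2, and kcs1vip1 H2O2 had no value.

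Without the 3 discordant arrays the counts were 6 for wild type H2O2 (3), 7 for kcs1 log (0), 5 for Vip1D487A log (0), 7 for arg82 log (2), 0 for ipk1 log (2), 5 each for Rpd3ibs and snt1 log (3 each), 1 for Vip1D487A KCl (0), 8 for Rpd3ibs KCl (3), 4 for snt1 KCl (2) and 1 for rapamycin in KCl (0). KCl minus log then had 8 for kcs1vip1 (4), 3 for vip1 (1), 3 for arg82 (0) and 1 for Rpd3ibs (0), and kcs1vip1 minus vip1 log had 8 (2). VTC1 in ipk1 log turned to -0.08 (-0.08 to 3.29 without either ipk1 array), and PHO5 in ipk1 KCl to -1.61.

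Leaving out 1 array at a time, where a lone array is assumed to vary like the other groups, gave these ranges. In wild type they were 0 to 1 for H2O2, 9 to 9 for KCl and 2 to 5 for H2O2 minus KCl. In log growth they were 3 to 5 for kcs1vip1, 0 to 2 for kcs1 and Vip1D487A, 2 to 4 for vip1, 0 to 0 for arg82, 0 to 8 for ipk1 and 2 to 2 for Rpd3ibs and snt1. In KCl they were 1 to 3 for kcs1vip1, 1 to 4 for kcs1, 2 to 2 for vip1, 6 to 8 for arg82, 2 to 7 for ipk1, 0 to 1 for Rpd3ibs, 1 to 1 for snt1 and 0 to 0 for Vip1D487A. For kcs1vip1 they were 0 to 1 in H2O2 and 0 to 0 for rapamycin in KCl. For KCl minus log they were 3 to 4 for kcs1vip1, 0 to 1 for vip1 and ipk1, and 0 to 0 for the other mutants. In log growth kcs1vip1 minus vip1 had 0 to 2, kcs1vip1 minus kcs1 1 to 5 and kcs1 minus vip1 2 to 8. In KCl they had 3 to 5, 2 to 5 and 4 to 7.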

Other observations

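One array was placed in no group, because the title and the channel sources disagree on whether its reference RNA came from KCl or log growth. Its values were -3.32 for PHO12, -2.90 for PHO11, -2.37 for PHM6, -2.36 for VTC3, -1.63 for PHO81, -1.31 for PHO5, -1.06 for VTC4, -0.46 for PHO8, -0.36 for VTC1 and 2.15 for PHM8. Over all genes it correlated at r = 0.95 with the array of kcs1vip1 in KCl over kcs1vip1 in log growth, on which PHO12 was at -3.41 and PHM8 at 2.56. The second kcs1 log array correlated with the 2 vip1 log arrays at r = -0.35 and -0.34.

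The first ipk1 KCl array and the third held PHO5 at -1.48 and -1.75 but PHO12 at 2.40 and 1.26. The KCl minus log difference of PHO12 on the slide that held the first ipk1 arrays was 2.92, and that of PHO5 was 0.00.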
